A study of Mus musculus with 6 samples.

Results

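The WIPI, ATG2 and ATG9 membrane supply genes are a group of 10 named genes whose products bring membrane and lipid to the growing autophagosome, taken here as the rows of the deposited gene table that carry the symbols Wipi1, Wipi2, Wdr45, Wdr45b, Atg2a, Atg2b, Atg9a, Vmp1, Tmem41b and Epg5. All 10 were found among the 24421 rows, and all 10 had at least 1 FPKM (fragments per kilobase of gene, scaled by the read total of the library) in at least 3 libraries and were tested. Messenger RNA came from primary proximal tubular epithelial cells of mouse kidney, grown with serum and given 20 µM erastin2 for 24 h. Erastin2 blocks the cystine importer system xc-, and cells short of cystine can die by ferroptosis through iron-dependent oxidation of membrane lipids. The groups were Atg5F/F, the floxed control, and Atg5KO, with 3 libraries each and 1 shared batch date. Both groups received erastin2, so a standing effect of genotype and a genotype-dependent drug response cannot be told apart. No Cre driver, age, animal or culture is labelled for a replicate, and p-values therefore reflect variation between these 6 samples alone, part of which can be technical.

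An autophagosome grows from a cup-shaped membrane at the endoplasmic reticulum. WIPI proteins (WIPI1, WIPI2, and WIPI3 and WIPI4, encoded by Wdr45b and Wdr45) bind phosphatidylinositol 3-phosphate on that membrane, and WIPI2 recruits the ATG16L1 complex that carries ATG5 there. ATG2 proteins are rod-shaped bridges that move lipid from the endoplasmic reticulum into the cup, ATG9A is a scramblase that arrives on small vesicles and spreads the lipid over both leaflets, and VMP1 and TMEM41B are scramblases of the endoplasmic reticulum at the donor side. EPG5 acts last, as a tether for the fusion of the closed autophagosome with late endosomes and lysosomes. ATG5 belongs to the conjugation step that follows membrane supply, so each of these genes except Epg5 is placed beside or upstream of the deleted step.

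The 4 WIPI paralogues share a short lipid-binding motif, named FRRG after its residues in WIPI1, but differ around it and within it. The coding stretches below, from the longest coding transcript of each gene in GENCODE vM21 (GRCm38), are shown because reads of paralogues are told apart only by such differences. Capitals mark the 12 bases of the motif, which in Wdr45 and Wdr45b encode leucine in place of phenylalanine. Each line gives 30 bases of coding sequence.
Wipi1: ctctatgagTTTCGTCGAGGAatgaaaagg
Wipi2: ctgtttgagTTCAGGAGAGGAgtgaagagg
Wdr45: ctggtagagCTTCGAAGAGGCaccgaccct
Wdr45b: atccaggagCTACGAAGAGGAtctcaagca
No run of 50 bases of the Wipi1, Wipi2 or Atg2a transcript occurred in a transcript of another gene. The share of such runs found elsewhere was 0.28% for Epg5, 2.02% for Wdr45b, 2.81% for Vmp1 (Mir21a, whose hairpin lies in its last part, and Gm1969), 4.46% for Atg2b (Gskip) and 15.9% for Tmem41b (the gene model Gm6223). It was 46.2% for Wdr45 and 43.9% for Atg9a, through Gm45208 and Gm29253, gene models on the same strand that overlap them. Neither Gm45208, Gm29253 nor Gm6223 is a row of the deposited table, and how shared reads were assigned is not given in the sources used here, so the values of Wdr45, Atg9a and Tmem41b are less certain than those of the other members.

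Atg5 itself gave no sign of the deletion at the level of the whole gene: it stood at 8.76, 8.95 and 7.94 FPKM in Atg5F/F replicates 1 to 3 and at 13.3, 11.5 and 12.7 FPKM in Atg5KO replicates 1 to 3. A value over the whole gene cannot show a missing exon, so the labels could not be checked from it, and the groups are called F/F-labelled and KO-labelled below. Implied read totals ran from 15528454 to 30004933 per library. Of 14 proximal tubule markers 7 averaged at least 1 FPKM; Lrp2 (megalin), Ggt1 and Hnf4a were present, while Slc34a1, Slc5a2 and Slc22a6 stood below 0.2 FPKM and Slc22a8 was listed at 0. The summed level of the list was 236.6 to 258.4 FPKM in F/F-labelled and 134.0 to 146.0 FPKM in KO-labelled libraries, with 6 of 7 tested markers lower and 1 higher. Of 8 mesenchymal markers only Acta2 was above 1 FPKM, from 40.5 to 202.2 FPKM on average, and the other 7 summed to 0.23 and 0.31 FPKM. Distal tubule markers summed to at most 0.24 FPKM, endothelial markers to 8.49 to 10.0 FPKM in F/F-labelled and 5.27 to 6.56 FPKM in KO-labelled libraries, nearly all of it Kdr. The podocyte sum, mostly Synpo (23.7 and 24.3 FPKM, not called), overlapped between groups, but of its 3 tested markers Podxl was higher (1.57 to 2.86 FPKM) and Wt1 lower (3.56 to 2.43 FPKM). The immune sum overlapped, and neither of its 2 tested markers was called. The part of these marker differences in the results below was not tested, and in bulk samples a changed share of cells and a changed amount of RNA per cell cannot be told apart.

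Of the 10 genes, 1 was higher in KO-labelled libraries, 2 were lower and 7 were not called (limma, Benjamini-Hochberg adjusted p under 0.05 over all genes tested). Wipi1 was the higher gene, and Vmp1 and Atg2b were the lower genes. Log2 differences of single genes, here and below, were taken on FPKM + 1, whereas those of ratios within pairs were taken on FPKM. Of all genes, 39.2% of the 11559 tested were called, 21.3% higher and 17.9% lower, so 30.0% of members called is near the background and says nothing particular about the group. The median log2 fold change of the members was 0.00 and that of all tested genes 0.02, and the median absolute change was 0.08 against 0.13. The 3 values of a group did not overlap those of the other for 5 members, where 51.9% of all tested genes had groups that did not overlap. Leaving out F/F-labelled replicate 1 left 0 genes called lower, leaving out F/F-labelled replicate 3 or KO-labelled replicate 1 or 2 left 1 (Vmp1), quantile normalization left 1 (Atg2b), and leaving out F/F-labelled replicate 2 added Wdr45b to the genes called higher. With a trend along gene length removed, Epg5 was added to the genes called lower, which then numbered 3.

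**Figure D1:**
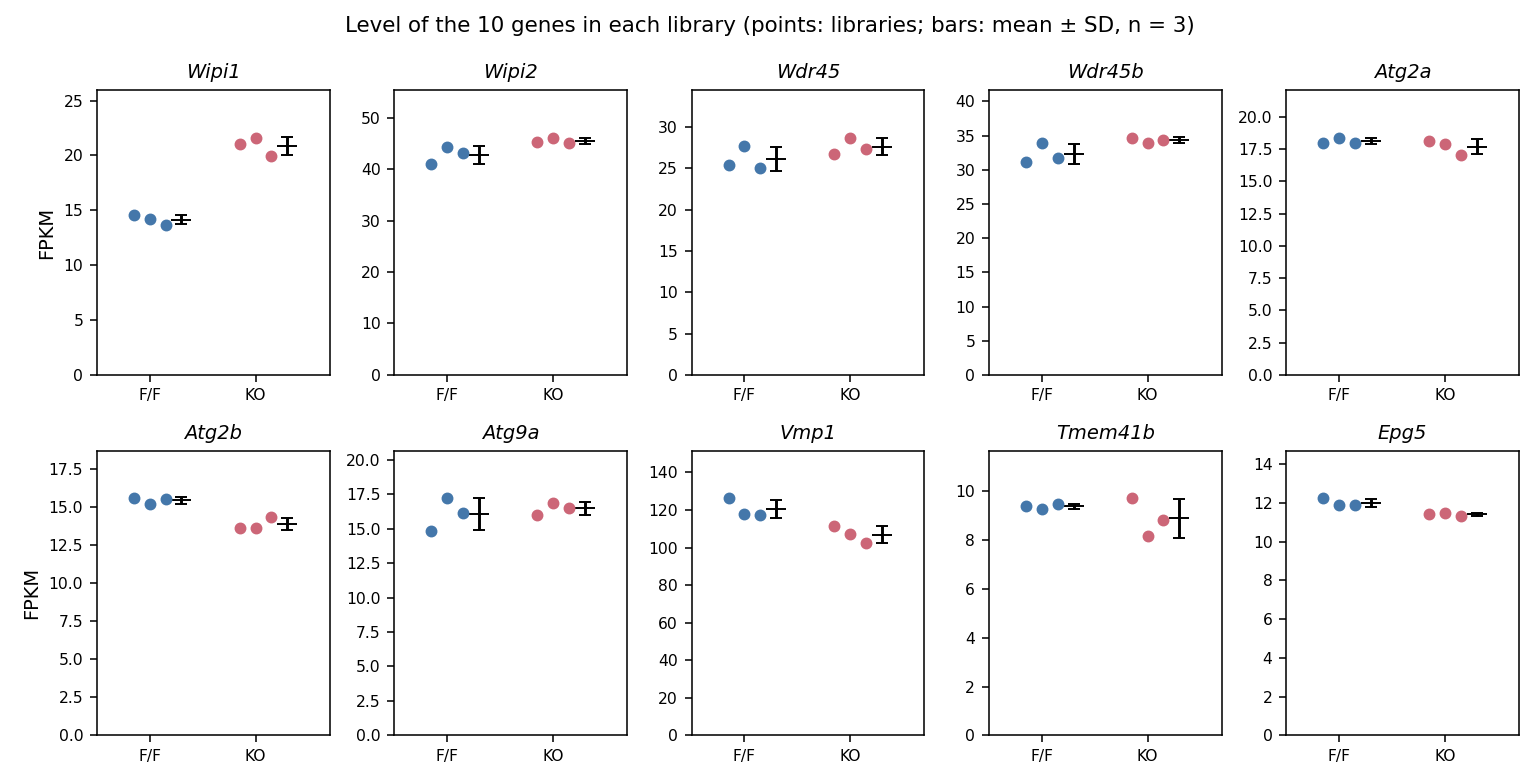
FPKM of the 10 genes in each of the 6 libraries, on axes that start at 0, with points for libraries (F/F, Atg5F/F; KO, Atg5KO) and bars for mean ± SD, n = 3. Wipi1 is the gene whose groups stand far apart, from 13.7 to 14.5 FPKM against 20.0 to 21.6 FPKM, while the gaps of Vmp1, Atg2b, Epg5 and Wipi2 are small beside their levels.

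Among the PI3P-binding WIPI genes, Wipi1 changed and the other members were not called. Wipi1 encodes a PI3P effector of the early autophagosome and lies on chromosome 11 (109573331 to 109611967, minus strand, GRCm38). It measured 14.5, 14.2 and 13.7 FPKM in F/F-labelled replicates 1 to 3 and 21.0, 21.6 and 20.0 FPKM in KO-labelled replicates 1 to 3, from 401 to 793 reads a library. Every KO-labelled library was above every F/F-labelled one, with a gap wider than the range inside either group. Group means were 14.2 ± 0.42 and 20.9 ± 0.83 FPKM (SD, n = 3). The log2 difference of FPKM + 1 was 0.53 (SE 0.046, 95% interval 0.43 to 0.63, limma adjusted p = 5.5e-05). Over 14 other settings the change ran from 0.51 to 0.56 and was called in all 14 (adjusted p from 7.2e-07 to 5.5e-04). The exact two-sided permutation p for Wipi1 was 0.1, the lowest value that 6 libraries in equal groups allow. Wipi2, Atg2b, Vmp1 and Epg5 had the same permutation p of 0.1, and of these Wipi2 and Epg5 were not called by limma. In absolute size the Wipi1 change was the largest of the 10.

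Wipi2, the paralogue that recruits the ATG16L1 complex, was the most abundant WIPI gene. Its values were 40.9, 44.4 and 43.1 FPKM in F/F-labelled and 45.3, 46.2 and 45.0 FPKM in KO-labelled libraries. The groups did not overlap, yet the difference of 0.09 on the log2 scale (SE 0.040, 95% interval -0.0040 to 0.18) did not pass the test (limma adjusted p = 0.12). The interval bounds a change of Wipi2 at 1.13-fold higher in FPKM + 1. Wdr45b (WIPI3) had 31.2, 34.0 and 31.7 FPKM against 34.7, 33.9 and 34.4 FPKM, and Wdr45 (WIPI4, X-linked) had 25.5, 27.7 and 25.0 FPKM against 26.7, 28.7 and 27.4 FPKM. In both genes F/F-labelled replicate 2 reached into the KO-labelled range. Their log2 differences were 0.09 (SE 0.042, limma adjusted p = 0.13) and 0.08 (SE 0.049, limma adjusted p = 0.23). Without F/F-labelled replicate 2 the Wdr45b difference was 0.12 and was called (limma adjusted p = 0.043).

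Within the family, Wipi1 held a larger share in each KO-labelled library than in any F/F-labelled one. The 4 genes together summed to 115.3 ± 4.3 FPKM in F/F-labelled and 128.3 ± 1.9 FPKM in KO-labelled libraries (SD, n = 3). Wipi1 made up 12.97%, 11.82% and 12.07% of that sum in F/F-labelled replicates 1 to 3 and 16.47%, 16.58% and 15.76% in KO-labelled replicates 1 to 3. Wipi2 held 37.1% ± 0.73 and 35.4% ± 0.055, Wdr45b 28.0% ± 0.22 and 26.8% ± 0.66, and Wdr45 22.6% ± 0.51 and 21.5% ± 0.56. The ratio of Wipi1 to Wipi2 inside a library, which a single scaling factor per library leaves as it is, was 0.36, 0.32 and 0.32 in the floxed group against 0.46, 0.47 and 0.44 in the KO-labelled one. It did not overlap between groups, with a log2 difference of 0.47 (exact two-sided permutation p = 0.1, the smallest possible, and 0.4 adjusted over 4 pairs, so this test could not pass at 0.05 for any pair). The ratio of Wdr45b to Wdr45 was 1.24 ± 0.024 and 1.25 ± 0.060 and overlapped between groups (log2 difference 0.01, exact permutation p = 1).

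**Figure D2:**
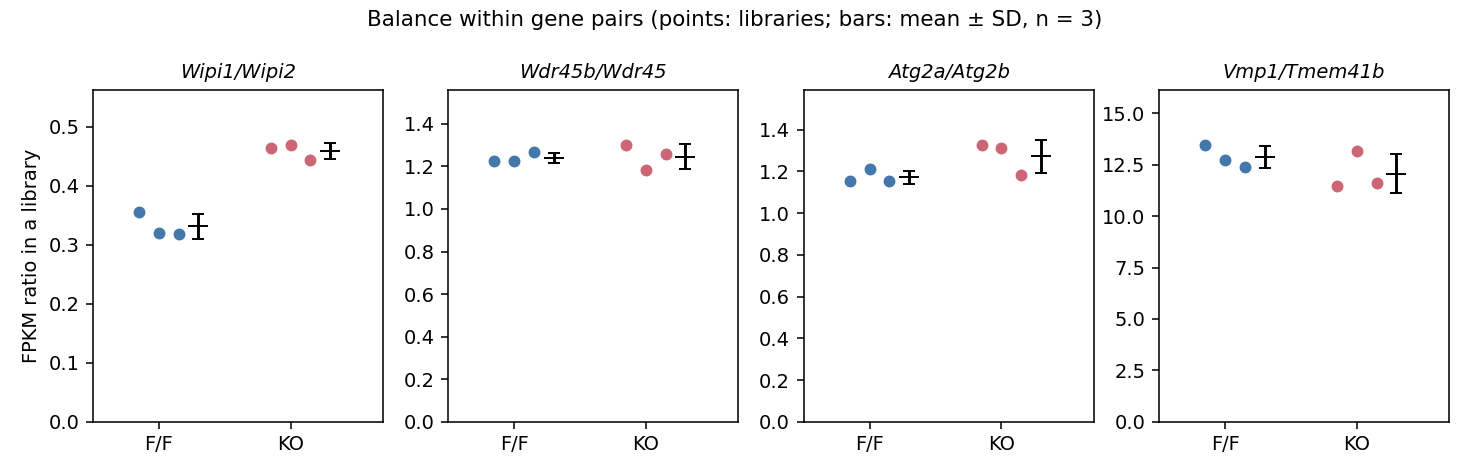
Ratio of FPKM values within 4 gene pairs in each library, on axes that start at 0, with points for libraries and bars for mean ± SD, n = 3. The Wipi1 to Wipi2 ratio separates the groups (0.32 to 0.36 against 0.44 to 0.47), and the other 3 ratios overlap.

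The lipid bridge genes Atg2a and Atg2b were at similar levels, and Atg2b was called lower. Atg2b lies on chromosome 12 (105616136 to 105685211, minus strand, GRCm38) and shares 383 exonic bases at its start with Gskip on the opposite strand. It measured 15.6, 15.2 and 15.6 FPKM in F/F-labelled and 13.7, 13.7 and 14.4 FPKM in KO-labelled libraries, from 2352 to 4767 reads. All 3 KO-labelled values lay below all 3 F/F-labelled ones. Group means were 15.5 ± 0.23 and 13.9 ± 0.42 FPKM (SD, n = 3). The log2 difference of FPKM + 1 was -0.14 (SE 0.042, 95% interval -0.24 to -0.05, limma adjusted p = 0.026). The call was lost without F/F-labelled replicate 1 or 3 or KO-labelled replicate 1 or 2 (limma adjusted p = 0.068, 0.088, 0.080 and 0.067), with changes of -0.14, -0.14, -0.13 and -0.13. Gskip was not called (12.7 ± 0.74 and 13.1 ± 0.94 FPKM).

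Atg2a, the other bridge gene, had 18.0, 18.4 and 18.0 FPKM in F/F-labelled and 18.1, 17.9 and 17.0 FPKM in KO-labelled libraries, and the groups overlapped. Its log2 difference was -0.03 (SE 0.041, 95% interval -0.13 to 0.06, limma adjusted p = 0.53). The ratio of Atg2a to Atg2b was 1.17 ± 0.032 in F/F-labelled and 1.27 ± 0.079 in KO-labelled libraries, and KO-labelled replicate 3, at 1.18, lay inside the F/F-labelled range of 1.15 to 1.21. The log2 difference of that ratio was 0.12 (exact permutation p = 0.2, 0.4 adjusted over 4 pairs).

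Atg9a, the scramblase of the seed vesicles, had 14.9, 17.2 and 16.1 FPKM in F/F-labelled and 16.0, 16.9 and 16.5 FPKM in KO-labelled libraries. The KO-labelled values lay inside the F/F-labelled range. Its log2 difference was 0.04 (SE 0.056, 95% interval -0.09 to 0.16, limma adjusted p = 0.65), and it was -0.017 without F/F-labelled replicate 1 and -0.012 with the length trend removed, so no direction is given for it. The neighbouring Abcb6, a transporter gene downstream on the same strand, fell from 16.5 ± 0.61 to 11.9 ± 0.76 FPKM (-0.44 on the log2 scale, limma adjusted p = 3.8e-04), while Ankzf1, which shares 46 exonic bases with Atg9a, was not called (7.96 ± 0.34 and 7.86 ± 0.31 FPKM). The Wipi1 neighbour Arsg, a lysosomal sulfatase gene that ends at the adjacent base on the opposite strand, was lower as well. It stood at 1.79, 2.35 and 2.08 FPKM in F/F-labelled and 1.33, 1.39 and 1.49 FPKM in KO-labelled libraries. The difference was -0.35 on the log2 scale of FPKM + 1, damped at so low a level by the added 1 (limma adjusted p = 0.015). Arsg and Wipi1 share no annotated exonic base.

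Of the scramblases of the endoplasmic reticulum, Vmp1 was called lower and Tmem41b was not called. Vmp1 was the most abundant of the 10 genes and lies on chromosome 11 (86583865 to 86683836, minus strand, GRCm38). It measured 126.4, 117.8 and 117.5 FPKM in F/F-labelled and 111.4, 107.2 and 102.2 FPKM in KO-labelled libraries, from 4933 to 10515 reads. The groups did not overlap, and F/F-labelled replicate 1 was the highest library. Group means were 120.6 ± 5.0 and 106.9 ± 4.6 FPKM (SD, n = 3). The log2 difference of FPKM + 1 was -0.17 (SE 0.047, 95% interval -0.28 to -0.07, limma adjusted p = 0.019). The call was lost without F/F-labelled replicate 1 (-0.14, limma adjusted p = 0.062), and under quantile normalization, where the change was -0.09 (limma adjusted p = 0.13). Mir21a, the microRNA gene inside the 3′ end of Vmp1, was listed at 0 in all 6 libraries. Its 92 bases lie within Vmp1 exons on the same strand, and how shared reads were assigned is not given. That 0 therefore does not show that the microRNA was absent.

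Tmem41b, which resembles Vmp1 in its membrane domain, was the least abundant member. It had 9.40, 9.25 and 9.48 FPKM in F/F-labelled and 9.72, 8.15 and 8.81 FPKM in KO-labelled libraries. The KO-labelled values spread around the F/F-labelled ones, with a coefficient of variation of 8.89%, the highest of any member in either group. Its log2 difference was -0.07 (SE 0.063, 95% interval -0.22 to 0.07, limma adjusted p = 0.39), and it ran from -0.13 without KO-labelled replicate 1 to -0.02 without KO-labelled replicate 2. The ratio of Vmp1 to Tmem41b was 12.9 ± 0.53 in F/F-labelled and 12.1 ± 0.94 in KO-labelled libraries and overlapped between groups (log2 difference -0.09, exact permutation p = 0.3, 0.4 adjusted over 4 pairs).

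The fusion tether gene Epg5 had 12.3, 11.9 and 11.9 FPKM in F/F-labelled and 11.4, 11.5 and 11.3 FPKM in KO-labelled libraries. The groups did not overlap, but the difference of -0.07 on the log2 scale (SE 0.042, 95% interval -0.16 to 0.03) did not pass the test (limma adjusted p = 0.23). Epg5 and Atg2b have the longest transcripts of the members, with implied lengths of 9672 and 10172 bases, and the libraries differed along length. Across genes, the Spearman correlation of a library's deviation with gene length lay between -0.23 and -0.16 for F/F-labelled libraries and between 0.04 and 0.34 for KO-labelled ones, where long transcripts stood higher. With that trend removed, Epg5 was called lower at -0.16 (limma adjusted p = 0.018) and Atg2b stood at -0.24 (limma adjusted p = 0.0015). Wipi1, with an implied length of 1817 bases, was at 0.56 with the trend removed.

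**Figure D3:**
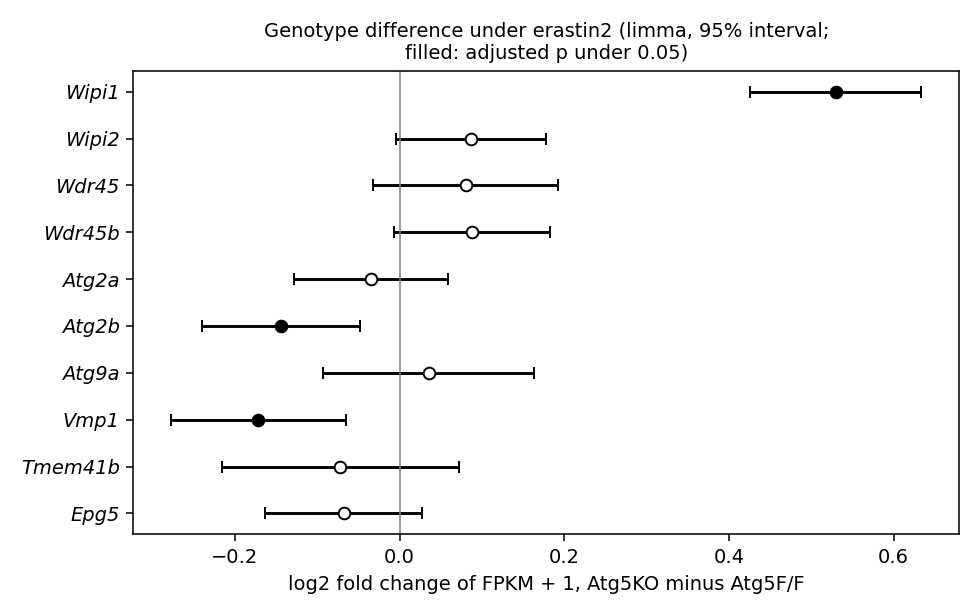
Log2 fold change of FPKM + 1 for each of the 10 genes, KO-labelled minus F/F-labelled libraries (limma, 95% interval, n = 3 per group), filled where the adjusted p was under 0.05. Wipi1 lies at 0.53, Vmp1 and Atg2b at -0.17 and -0.14, and the intervals of the other 7 genes include 0.

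For the 7 genes not called, the intervals bound the differences rather than show that the groups were alike. The bounds reached from -0.22 to 0.19 on the log2 scale, that is, from 0.86-fold to 1.14-fold in FPKM + 1. In the authors' deposited table, 3 of the 10 genes had an FDR under 0.05, and they were Wipi1 (1.3e-12), Vmp1 (3.7e-05) and Atg2b (7.1e-04). Epg5 had 0.13 in the authors' deposited table.

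**Figure D4:**
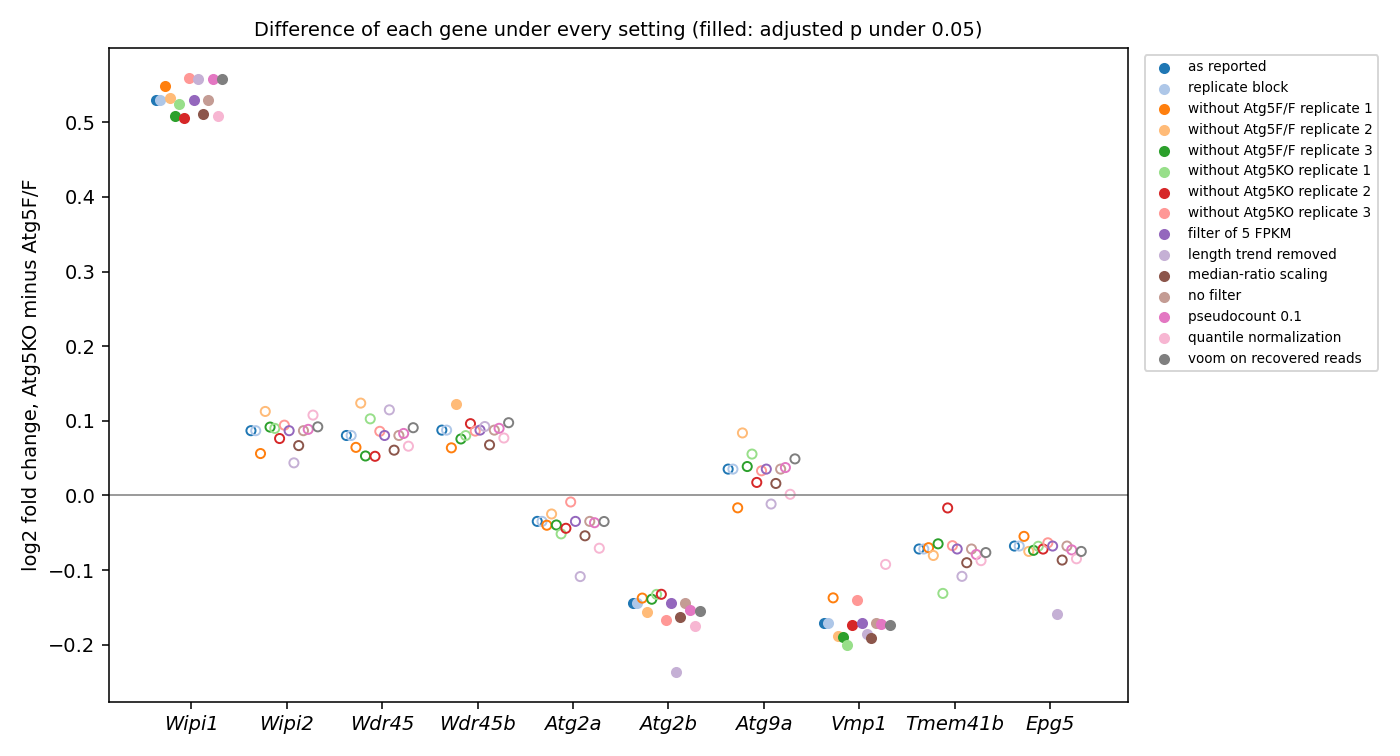
Log2 fold change of each gene, KO-labelled minus F/F-labelled, as reported and under 14 other settings, filled where the adjusted p was under 0.05. All Wipi1 points are filled and lie between 0.51 and 0.56, whereas Vmp1 and Atg2b hold both filled and open points and Atg9a lies on both sides of 0.

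Ordered by mean FPKM, which is a level per length, F/F-labelled libraries ran from Vmp1 (120.6) through Wipi2 (42.8), Wdr45b (32.3), Wdr45 (26.1), Atg2a (18.1), Atg9a (16.1), Atg2b (15.5), Wipi1 (14.2) and Epg5 (12.0) to Tmem41b (9.38). Vmp1 thus stood well above the rest, and the other scramblase of the endoplasmic reticulum stood last. Neighbours in this order had values that did not overlap, except for Atg9a and Atg2b. In KO-labelled libraries the order was the same apart from Wipi1, which at 20.9 FPKM moved from rank 8 to rank 5, above Atg2a (17.7), Atg9a (16.5) and Atg2b (13.9). No neighbours overlapped there, the nearest being Atg2a and Atg9a, whose closest libraries stood at 17.0 and 16.9 FPKM.

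The promoters of the 3 called genes are shown as sequence alone. A relation of their letters to the direction of change was not tested. RefSeq windows on GRCm38.p6 were found for 8 of the 10 genes, and the 250 bases before the RefSeq start are printed, 5′ to 3′ on the gene's strand. The sites searched, on both strands, were chosen with the sequences in view, and a match describes letters, not binding. Capitals mark the GC box GGGCGG (found in 32.7% of 32851 promoters) in Wipi1 and Atg2b and the ETS core CCGGAAGT (2.88%) in Vmp1. Also searched, but not marked, were the cores named ARE (TGACNNNGC, 10.2%) and CARE (TGATGNAA, 3.45%) and the CCAAT box (33.8%). The ARE core occurred 1 time in each of the 3 Vmp1 windows and in no window of another member. The CARE core was in no member's window. The CCAAT box was absent from the called genes and present in Atg9a, Atg2a, Tmem41b and Wdr45. The window of Wipi1 is chr11:109611390-109611639, that of Vmp1, the most upstream of 3 listed, is chr11:86683837-86684086, and that of Atg2b is chr12:105685242-105685491, all on the minus strand. The Wipi1 window lies inside the gene span given above from GENCODE, so it is not upstream of the GENCODE start. The windows of Wipi2, Wdr45 and Tmem41b also lie inside their GENCODE spans, whereas the printed Vmp1 and Atg2b windows lie upstream of theirs.
Wipi1: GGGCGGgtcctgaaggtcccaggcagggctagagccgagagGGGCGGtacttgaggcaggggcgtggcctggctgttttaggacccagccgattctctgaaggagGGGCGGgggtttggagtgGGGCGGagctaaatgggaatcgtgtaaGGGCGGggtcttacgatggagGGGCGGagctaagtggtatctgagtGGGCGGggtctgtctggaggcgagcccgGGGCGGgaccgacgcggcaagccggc
Vmp1: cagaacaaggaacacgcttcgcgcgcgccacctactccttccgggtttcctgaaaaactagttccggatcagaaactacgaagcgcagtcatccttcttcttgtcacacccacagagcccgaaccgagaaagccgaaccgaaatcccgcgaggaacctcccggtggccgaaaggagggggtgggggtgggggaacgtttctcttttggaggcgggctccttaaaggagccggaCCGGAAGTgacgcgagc
Atg2b: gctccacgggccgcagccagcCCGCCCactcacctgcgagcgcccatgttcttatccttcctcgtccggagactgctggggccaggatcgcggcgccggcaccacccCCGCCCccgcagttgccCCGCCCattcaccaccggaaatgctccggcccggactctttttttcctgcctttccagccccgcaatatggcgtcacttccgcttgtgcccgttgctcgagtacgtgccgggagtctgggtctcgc
The Wipi1 window held 8 GC boxes, and 0.16% of all windows held at least that many. The GC content of the Wipi1 window was 67.2%, against a median of 52.4% over all windows, and the 0.16% makes no allowance for GC content. Atg2b held 3, a number reached by 8.47% of windows, the Vmp1 window printed held 0, and of the other members Tmem41b had 4 and Wipi2 had 2. The E-box CACGTG (6.02% of windows), the core of the CLEAR sites bound by TFEB, was not among the letters of any of the 8 genes' windows.

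Likeness to Wipi1 was taken from log2 levels over the 6 libraries, with Riken clones, predicted genes and pseudogenes left out by symbol. The closest of the remaining tested genes were Wnt9a (Pearson r = 0.999, a Wnt ligand), Cd200 (r = 0.999, a membrane glycoprotein) and Tubb3 (r = 0.998, a beta tubulin). The 6 points of each correlation fall into the 2 groups. With no gene left out by symbol, 955 tested genes reached an r of 0.95 with Wipi1, so this likeness mostly restates the difference between groups. The mean of Wnt9a was 11.2 FPKM in F/F-labelled and 16.5 FPKM in KO-labelled libraries.

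Around these 10 genes, other genes of autophagosome formation and fusion were taken from 8 lists by role, 77 of them tested. Of these, 23 were higher, 6 were lower and 48 did not pass; their median log2 fold change was 0.04 beside 0.02 for all tested genes. That is 37.7% called, near the 39.2% of all tested genes, with 29.9% higher and 7.79% lower beside 21.3% and 17.9% of all. The counts of the single lists below, of 3 to 20 genes each, stand against the same background and are descriptions. The count of lower genes was 2 without F/F-labelled replicate 3, 3 without KO-labelled replicate 1 and 10 with the length trend removed. In the ULK complex, which starts the process, 4 of 5 genes were higher and 0 lower (median 0.29). They included Rb1cc1, the FIP200 scaffold (16.6 ± 0.56 to 23.0 ± 1.1 FPKM, 0.45), the kinase gene Ulk2 (10.1 ± 0.51 to 12.9 ± 0.51 FPKM, 0.33) and Atg13 (15.8 ± 0.63 to 19.5 ± 1.2 FPKM, 0.29). The class III PI3-kinase complexes make the lipid that WIPI proteins bind, and 3 of 7 genes were higher and 0 lower (median 0.07). The lower count was 1 with the length trend removed and 1 under quantile normalization. The higher genes were Pik3c3, the catalytic subunit VPS34 (12.9 ± 0.66 to 16.1 ± 0.40 FPKM, 0.30), Atg14 (0.33) and Uvrag (0.21), which define alternative forms of the complex. The phosphatases that remove PI3P, with the omegasome protein gene Zfyve1, had 4 of 6 higher and 0 lower (median 0.20). Zfyve1 (DFCP1) rose from 24.1 ± 1.1 to 28.9 ± 1.1 FPKM (0.25) and Mtmr2 by 0.22. Mtmr7 rose from 1.05 to 1.62 FPKM, or by 0.36 on the log2 scale of FPKM + 1, where the added 1 damps the change.

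The conjugation machinery to which ATG5 belongs had 4 of 16 higher and 3 lower (median -0.04). Atg5 (0.50) and the LC3 gene Map1lc3b (77.6 ± 0.47 to 92.4 ± 3.0 FPKM, 0.25) were higher and the protease gene Atg4c was lower (-0.19). The higher count was 2 without F/F-labelled replicate 3 or KO-labelled replicate 1. The lower count was 0 without F/F-labelled replicate 3 and 1 without F/F-labelled replicate 1 or 2 or KO-labelled replicate 1. The VPS13 proteins and other bridge-like lipid transfer proteins, structural relatives of ATG2, had 0 of 6 called by limma, of which 1 had an unadjusted p under 0.05 (Vps13c, 0.11, limma adjusted p = 0.088). By voom on recovered reads 1 was called higher, and with the length trend removed 1 was called lower. Among paralogues outside the 10 genes, Tmem64, a relative of Vmp1 and Tmem41b, rose from 11.1 ± 0.48 to 13.4 ± 0.32 FPKM (0.25), and Atg9b and Tmem41a were not called.

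Factors that carry ATG9 vesicles had 3 of 20 higher and 0 lower (median 0.02). They were Fam160a1 (0.29), the sorting nexin gene Snx18 (42.4 ± 0.45 to 47.8 ± 0.24 FPKM, 0.17) and Sh3glb1, which encodes the membrane-curving protein Bif-1 (0.15). With the length trend removed, or under quantile normalization, 1 gene of this list was called lower. Partners of EPG5 in fusion went both ways, with 4 of 14 higher and 3 lower (median 0.02). The autophagosomal SNARE gene Stx17 rose from 5.55 ± 0.061 to 6.97 ± 0.32 FPKM (0.28) and its partner Snap29 from 16.1 ± 1.3 to 19.7 ± 0.17 FPKM (0.28), whereas the tether gene Tecpr1 fell from 25.6 ± 0.87 to 20.6 ± 0.99 FPKM (-0.30).

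**Figure D5:**
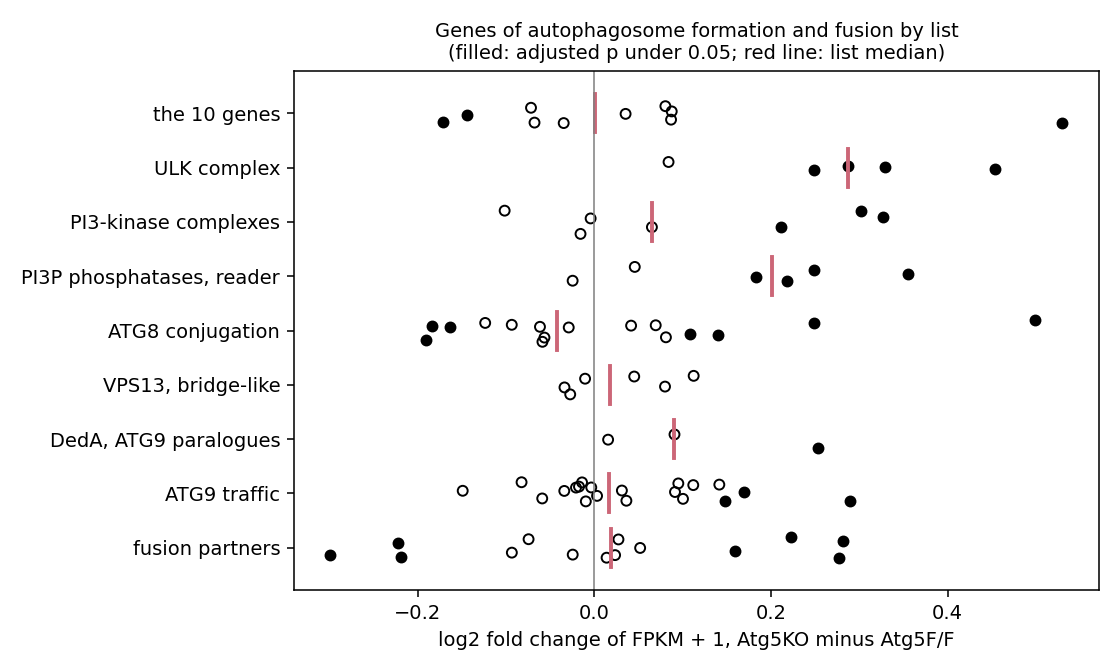
Log2 fold change of FPKM + 1, KO-labelled minus F/F-labelled, of every tested gene in 8 lists of autophagosome formation and fusion beside the 10 genes, filled where the adjusted p was under 0.05, with a red line at each list's median. In the ULK list 4 of 5 points are filled and above 0, while 7 of the 10 genes lie unfilled near 0.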

How the data were processed

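RNA was prepared with the TruSeq stranded kit, per the labels' protocols. The submitters' processing notes name HISAT2 (2.1.0), featureCounts (1.4.6), edgeR, Trimmomatic (0.35) and bcl2fastq, with the builds GRCm38 and mm10. Not given in the sources used here is how strand, multi-mapping reads and gene models were set. The authors deposited 1 table with an FPKM value per gene and library, and with a log2 fold change, a p-value, an FDR and a rank score of their own. The column headed as an adjusted p-value in the authors' deposited table matched an unadjusted one, since adjusting it by Benjamini-Hochberg gave the FDR within 4.7e-07. Read totals were inferred from FPKM steps, and whole reads were then assigned for all 18296 genes above 0. A gene length was accepted only where reads came within 2.0e-04 of whole, so that distance is a set tolerance and does not measure accuracy.

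Genes that reached 1 FPKM in 3 or more of the 6 libraries were tested two-sided with limma 3.58.1 (R 4.3.3) on log2(FPKM + 1), KO minus F/F, using moderated variances with a trend and Benjamini-Hochberg adjustment over all tested genes. The added 1 damps the fold changes of low genes. The code was tested on simulated data. Members and lists were chosen with earlier results of these data known, and lists are given by counts and medians. Named genes were the 10 members, Atg5 and up to 3 called genes of largest change per list (or the smallest p where none was called). Also named were the 3 genes most like the member of smallest p, with Riken clones, predicted genes and pseudogenes left out by symbol. Neighbours in the genome were named by position. Other settings left out each library, or used a replicate block, 2 scalings, another pseudocount (0.1), no filter, a filter of 5 FPKM, removal of the loess trend (span 0.5) on length and, added after seeing the data, voom on recovered reads. Libraries of a group differed beyond sampling noise (chi-square per degree of freedom 3.03 to 6.12), and each was kept as its own sample. Python 3.11.15 read the tables.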

Additional observations from a re-analysis of the deposited data

How the results depend on the processing

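Between 3265 and 5064 genes were called under the other settings, against 4530 as reported. Members called higher numbered 1 as reported and 1 to 2 when each library was left out. Members called lower numbered 2 as reported, 0 to 2 when each library was left out, 1 under quantile normalization and 3 with the length trend removed. Genes of the 8 lists called lower numbered 6 as reported, 2 to 5 when each library was left out, and 10 with the length trend removed. Atg9a changed sign without F/F-labelled replicate 1 (-0.017, in a range up to 0.084 when each library was left out) and with the length trend removed (-0.012). The 4 ratios within pairs moved by less than 1 SD between replicates when libraries were left out or 1 FPKM was added. Same-numbered libraries of the groups deviated together with r = 0.16, 0.08 and -0.02 across genes, so the numbers were not taken as pairs; with a replicate block 4668 genes were called, 2531 higher and 2137 lower, and the block changed the call of no member (1 higher, 2 lower). The planned count test on recovered reads with another tool was not run, and voom took its place. Scalings moved the median of all genes by less than 0.02 on the log2 scale.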
